A study of Mus musculus with 24 samples.

Results

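Basal and luminal progenitor (LP) cells of the mammary gland were compared here in mice that lack Id4, to show which differences between the 2 lineages stand without this gene. The comparison uses 8 of the series' 24 libraries, chosen by their labels alone: 4 of knockout basal cells and 4 of knockout LP cells. Both groups came from female FVB/N mice, labelled ID4 KO, aged 10 to 12 weeks and in estrus, so the knockout is common to every library compared. Glands of 4 to 8 mice were pooled for each replicate, and 1 pool was sorted by flow cytometry into the populations. After dead cells and cells positive for lineage markers (not named in the labels) were gated out, cells were taken as CD24+CD29hiCD61+ (basal) or CD24+CD29loCD61+ (LP). CD29 and CD61 are the integrins beta 1 and beta 3. The matching 8 libraries of wild-type (WT) basal and LP cells, sorted the same way, served only to show where the knockout contrast differs from that of animals with Id4. RNA, between 0.5 and 2 ng per library, was amplified to cDNA before sequencing, and the values are expected counts per gene. The labels cite an earlier publication for the mice and do not say what the allele removes.

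The mammary epithelium is a bilayer: basal, or myoepithelial, cells lie on the basement membrane and contract to eject milk, and luminal cells line the ducts. LP cells are the hormone receptor-poor luminal cells from which the milk-producing alveoli arise, and ELF5 is the transcription factor that drives this alveolar fate. ID4 is a helix-loop-helix protein without a DNA-binding domain. It dimerises with E proteins, transcription factors that bind E-box motifs, and keeps them off DNA, and in the mammary gland it is found in basal cells.

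The knockout basal libraries held 3098433 to 6276496 counts and the knockout LP libraries 3786225 to 6590338. At this depth 3 counts correspond to 0.455 to 0.968 CPM (counts adjusted for library size). The first principal component of the 8 libraries (45.4% of the variance) separated the populations, and the second (22.1%) set KO basal replicate 3 apart, at -120.6. This library was the shallowest and had the fewest genes with a count, 11837, and its Spearman correlations with the other KO basal libraries were 0.664 to 0.751. Its summed endothelial markers reached 277.5 CPM, against 69.4 to 103.3 in the other KO basal libraries. KO basal replicate 2 held 4777 CPM of summed milk protein and secretion genes, against 380.5 to 1148 in the other 3. Across all genes tested the spread between replicates was larger in basal cells, with a median SD of 0.99 on the log2(CPM + 0.5) scale against 0.53 in LP cells. No pair of replicates agreed within counting noise. The labels call the replicates biological, and p-values here measure the spread between these pools. The main fits did not pair the 2 populations sorted from 1 pool. Counting intervals cover counting error only, since amplified reads are not independent molecules. Id4 itself had 64, 6, 34 and 4 counts in KO basal replicates 1 to 4 (5.94 ± 5.67 CPM, SD, n = 4) and 595, 67, 99 and 239 in WT basal cells (42.0 ± 30.3). The difference was -3.06 on the log2(CPM + 0.5) scale (exact permutation test, two-sided, p = 0.0286, the smallest that 70 assignments of 4 against 4 allow). Leaving out 1 library at a time, the exact permutation p rose to 0.0571 or 0.0857 for 6 of the 8, among them each WT basal library. In knockout LP cells Id4 had 0, 0, 0 and 4 counts. Whether the remaining reads lie in the part the allele leaves could not be read from counts per gene.

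Of 11387 genes tested in the knockout, 1227 differed between the populations (edgeR quasi-likelihood test, adjusted p under 0.05; 10.8% of those tested). Of these, 799 were higher in basal cells (7.02%) and 428 lower (3.76%). The differences were large: 607 genes were at least 2 log2 units higher and 324 at least 2 lower, and the smallest difference that passed was 0.82. The median difference was 3.18 among the genes higher in basal cells and -3.06 among those lower, and 0.04 over all genes tested. With the genes that had no count in one population set at the lower bound that 3 counts per library give, the medians of the called genes were 3.18 and -3.004. The libraries of the populations did not overlap for 2226 genes (19.5%; 9.92% higher in basal cells and 9.63% lower). Protein-coding genes made up 10497 of those tested and 771 and 414 of those called higher and lower, and 10 and 5 of 150 long intergenic RNAs passed. Since bulk RNA was measured, more cells of a type and more RNA per cell cannot be told apart.

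The marker genes ran with the sort labels. Acta2 (ENSMUSG00000035783; GRCm38 chromosome 19, 34241090 to 34255590, minus strand), the smooth muscle actin of myoepithelial cells, stood at 5654, 4260, 3718 and 4688 CPM in KO basal replicates 1 to 4 and at 26.5, 12.0, 3.55 and 4.95 CPM in KO LP replicates 1 to 4. Every basal library lay far above every LP library, and the log2 fold change was 8.60 ± 0.66 (SE; edgeR adjusted p = 2.73e-06). Krt14, a basal keratin, stood at 839, 508, 641 and 704 CPM in basal cells and 9.37, 4.66, 0.237 and 0.171 CPM in LP cells (7.51 ± 0.88, adjusted p = 9.32e-05). Elf5 ran the other way, at 0.474, 26.8, 0 and 18.7 CPM in basal cells and 181, 134, 122 and 193 CPM in LP cells (-3.76 ± 0.98, adjusted p = 0.0233). The LP libraries were close to each other for Elf5, while basal replicates 2 and 4 lay well above basal replicates 1 and 3.

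**Figure D1:**
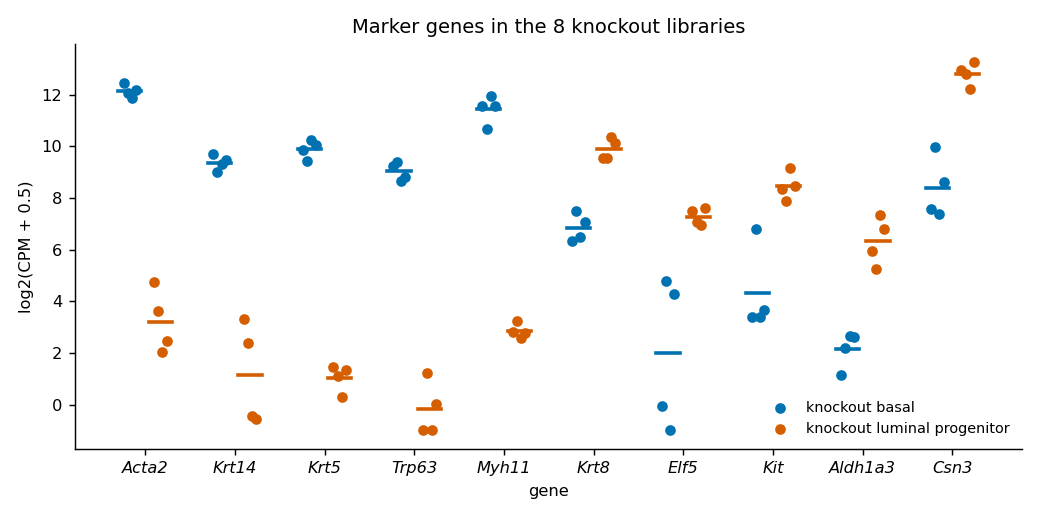
Levels of 10 marker genes in the 8 knockout libraries, on the log2(CPM + 0.5) scale, with a point for each library (replicates 1 to 4 from left to right) and a line at the group mean. The 5 basal markers on the left lie several log2 units above the LP libraries in every basal library, and for the luminal genes Elf5, Kit and Csn3 the basal libraries spread widely, with replicate 2 the highest.

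Contractile genes gave the most uniform difference. Of 18 smooth muscle genes tested, 17 were higher in basal cells and none lower, with a median log2 difference of 5.85. Cnn1, the actin-binding protein calponin, was the most even: 573, 559, 545 and 620 CPM in basal cells and a mean of 0.942 in LP cells (9.19 ± 0.42, adjusted p = 4.25e-08). Myh11, the smooth muscle myosin heavy chain, stood at 3023, 1646, 3907 and 3021 CPM in basal cells and between 5.44 and 8.81 in LP cells (8.74 ± 0.41, adjusted p = 4.25e-08). Replicate 2 was the lowest basal library for Myh11 and also for Tpm2, a tropomyosin, which had 511 CPM there and 1282 to 1770 in the other 3. Mylk, the kinase that activates smooth muscle myosin, and its substrate subunit Myl9 differed by 8.55 ± 0.68 and 8.26 ± 0.60. Actg2, the gamma actin of smooth muscle, had 3070 counts in the basal libraries together and 3 in the LP libraries, a ratio of 1207 (95% counting interval 412.5 to 5854). Oxtr, the oxytocin receptor through which milk ejection is triggered, reached 644 to 1045 CPM in basal cells but also 8.04 to 91.5 CPM in LP cells (4.13 ± 0.56, adjusted p = 0.000294). The member that did not pass was Srf, the factor that binds the CArG box in many contractile genes (1.04 ± 0.44, adjusted p = 0.167). In wild type the same counts were found, 17 higher of 18 and a median of 5.80.

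Because the contractile genes moved together, the 250 bases before the starts in the RefSeq promoter table were searched for the CArG box, a 10-base motif that reads the same on both strands. An exact box lay in 3 of the 18 promoters found for this list and a box with at most 1 mismatch in its AT core in 5, against 1.62% and 9.78% of 27025 genes in that table (GRCm38.p6) and 123 and 773 of the 8187 tested genes in it. These starts can differ from those of the GENCODE gene models used for gene coordinates: the Acta2 and Egr2 sites shown lie inside their GENCODE genes, downstream of the outermost start. Among 548 promoters of genes higher in basal cells these shares were 3.47% and 11.9%, and among 310 of genes lower in basal cells 2.58% and 12.3%. In the early response list an exact box lay in 2 of 16 promoters and a box with at most 1 mismatch in 5. The sites of 3 contractile genes follow, with those of the adhesion gene Vcl and the early response gene Egr2, which were also higher in basal cells. These genes were chosen by name and are not all those with a box. Capitals mark the box and lower case 10 bases on each side, 5′ to 3′ on the gene's strand.
Acta2 (chr19:34255438-34255467, minus strand, 1 core mismatch): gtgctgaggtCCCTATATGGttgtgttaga
Acta2 (chr19:34255388-34255417, minus strand, 1 core mismatch): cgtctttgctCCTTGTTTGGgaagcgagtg
Myl9 (chr2:156775293-156775322, plus strand, exact): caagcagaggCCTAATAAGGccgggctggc
Myl9 (chr2:156775355-156775384, plus strand, 1 core mismatch): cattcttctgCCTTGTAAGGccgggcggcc
Cnn2 (chr10:79988534-79988563, plus strand, exact): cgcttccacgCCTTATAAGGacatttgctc
Vcl (chr14:20929161-20929190, plus strand, exact): cccactatgcCCTTATAAGGagcgccccgc
Egr2 (chr10:67537439-67537468, plus strand, 1 core mismatch): ggaatggctcCCAAACAAGGgccggggagg
Egr2 (chr10:67537484-67537513, plus strand, exact): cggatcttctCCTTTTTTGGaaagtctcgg
Egr2 (chr10:67537787-67537816, plus strand, exact): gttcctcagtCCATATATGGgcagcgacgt
The Cnn2 and Vcl boxes have the same letters. Cnn2, another calponin, differed by 4.00 ± 0.46 and Vcl by 1.34 ± 0.35. Whether the boxes act on these genes was not tested.

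Basal keratins and identity genes followed the same direction, with 17 of 20 tested higher in basal cells, none lower and a median of 4.61. Krt5 (chromosome 15, 101707070 to 101712898, minus strand), the partner of Krt14 in the basal filament, had 924, 688, 1212 and 1061 CPM in basal cells and 2.21, 1.66, 0.710 and 2.05 in LP cells (9.15 ± 0.42, adjusted p = 4.25e-08). Trp63, which encodes the transcription factor p63 that keeps epithelial cells basal, stood at 608, 678, 408 and 444 CPM against 0, 1.83, 0 and 0.512 (9.67 ± 0.75, adjusted p = 2.76e-06). Snai2, encoding the repressor SLUG, had 28.4 to 117 CPM in basal cells and a single count in the 4 LP libraries, a ratio of 1570 (95% counting interval 281.4 to 62075). Sparc, a secreted matrix protein, was the fifth in level per kilobase among genes called at least 4-fold higher in basal cells (760 CPM per kb, against 25.5 in LP cells). Vim, the mesenchymal filament protein, differed less (2.97 ± 0.40, 194 against 24.8 CPM). Lgr6, an R-spondin receptor, was the smallest difference of the list that passed (1.23 ± 0.27). Runx2, Procr and Tspan8 did not pass, and Tspan8, a tetraspanin, had its mean on the luminal side (23.1 CPM in basal and 75.7 in LP cells, adjusted p = 0.146).

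The 250 bases before the RefSeq start of Krt5 and of the luminal gene Epcam are shown because E proteins, which ID4 holds back, bind the E-box CANNTG (read on both strands, since it is its own reverse complement). Capitals mark each E-box.
Krt5 (chr15:101712906-101713155, minus strand): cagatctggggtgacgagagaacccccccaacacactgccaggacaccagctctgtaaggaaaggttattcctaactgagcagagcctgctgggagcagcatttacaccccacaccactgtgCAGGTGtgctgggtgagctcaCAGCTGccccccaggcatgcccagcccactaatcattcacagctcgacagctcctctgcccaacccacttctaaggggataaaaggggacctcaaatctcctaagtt
Epcam (chr17:87635729-87635978, plus strand): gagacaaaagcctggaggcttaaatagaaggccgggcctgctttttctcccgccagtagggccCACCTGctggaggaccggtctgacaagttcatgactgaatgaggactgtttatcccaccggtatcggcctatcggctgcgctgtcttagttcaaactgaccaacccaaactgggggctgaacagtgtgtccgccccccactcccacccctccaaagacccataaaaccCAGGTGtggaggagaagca
Both promoters held 2 E-boxes. This short motif lay in 69.3% of all promoters of this length and in 61.1% of the 8187 of tested genes, beside 61.7% of those of genes higher in basal cells and 68.4% of those of genes lower there.

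Genes of the basement membrane, the sheet on which basal cells sit, were higher in basal cells for 15 of 19 tested, with none lower and a median of 2.74. The collagen IV pair Col4a1 and Col4a2, neighbouring genes, had 332 to 675 and 386 to 834 CPM in basal cells and at most 7.65 and 5.70 in LP cells (7.18 ± 0.52 and 7.72 ± 0.55). KO basal replicate 3 was the lowest basal library for both. Lama1, a laminin alpha chain, was even across replicates, with 494 to 631 CPM in basal cells and 6.62 to 19.6 in LP cells (5.61 ± 0.40, adjusted p = 1.97e-06). Collagens of the hemidesmosome and its anchoring fibrils, Col17a1 (7.32 ± 0.54) and Col7a1 (8.19 ± 0.89), were also far higher in basal cells (365 and 73.3 CPM, against 2.24 and 0.212). Lama4, Lama5, Nid1 and Lamb2 did not pass, with differences of 0.87, 0.85, 0.23 and 0.13. Lamb2 had 51.1 CPM in basal and 46.6 in LP cells.

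Integrins bind this matrix, and 11 of 20 integrin and focal adhesion genes were higher in basal cells, with 1 lower. Itga6, the laminin receptor subunit also known as CD49f, had 898 to 1174 CPM in basal and 203 to 431 in LP cells (1.81 ± 0.28, adjusted p = 0.000839). Itga9 and Itga1, receptors for tenascin and collagen, differed more (6.97 ± 0.55 and 5.31 ± 0.71). Tln1, Pxn, Parva and Vcl, which link integrins to actin, differed by 1.34 to 1.60. The genes of the sorting antigens were not taken out of the list counts. They are no independent result, and their values describe the gates. Itgb1 (CD29) was 587 ± 121 CPM in basal and 283 ± 29.2 in LP cells (SD, n = 4) and passed (edgeR adjusted p = 0.0121). Itgb3 (CD61), the 1 gene of the list that was lower in basal cells, had 91.4, 93.1, 38.1 and 47.3 CPM there and 365, 151, 116 and 144 in LP cells (-1.52 ± 0.42, adjusted p = 0.0339, and 0.0610 without KO basal replicate 3). Cd24a had 611 ± 205 and 1158 ± 504 CPM, with ranges that overlapped (adjusted p = 0.102, and 0.0496 with the replicates as a block).

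Interstitial matrix genes split. Of 18 tested, 8 were higher in basal cells and none lower, with a median of 1.61. Postn, a matrix protein of contractile and fibrotic tissue, had 458 to 1238 CPM in basal cells and 3.55 to 26.1 in LP cells (adjusted p = 2.7e-05), and the small proteoglycan Bgn 145 to 286 against 5.65 to 13.8 (4.84 ± 0.42). The fibrillar collagens that fibroblasts make did not pass: Col1a1, Col1a2 and Col3a1 had means of 14.6, 21.7 and 22.5 CPM in basal cells and 19.8, 41.0 and 51.5 in LP cells. Enzymes that cut or protect the matrix were mostly basal, with 11 of 17 higher and 1 lower. Adamts1, a secreted protease of proteoglycans, had 1367, 528, 2838 and 1308 CPM in basal cells and 18.3 to 82.0 in LP cells (5.15 ± 0.58, adjusted p = 7.19e-05). Pappa, a protease that releases IGF from its binding proteins, had 5771 counts in basal and 3 in LP libraries, a ratio of 2268 (95% counting interval 775.7 to 11001). Timp3, an inhibitor bound to the matrix, differed by 3.53 ± 0.47, and the membrane protease Mmp15 was the 1 member lower in basal cells (-2.95 ± 0.66).

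**Figure D2:**
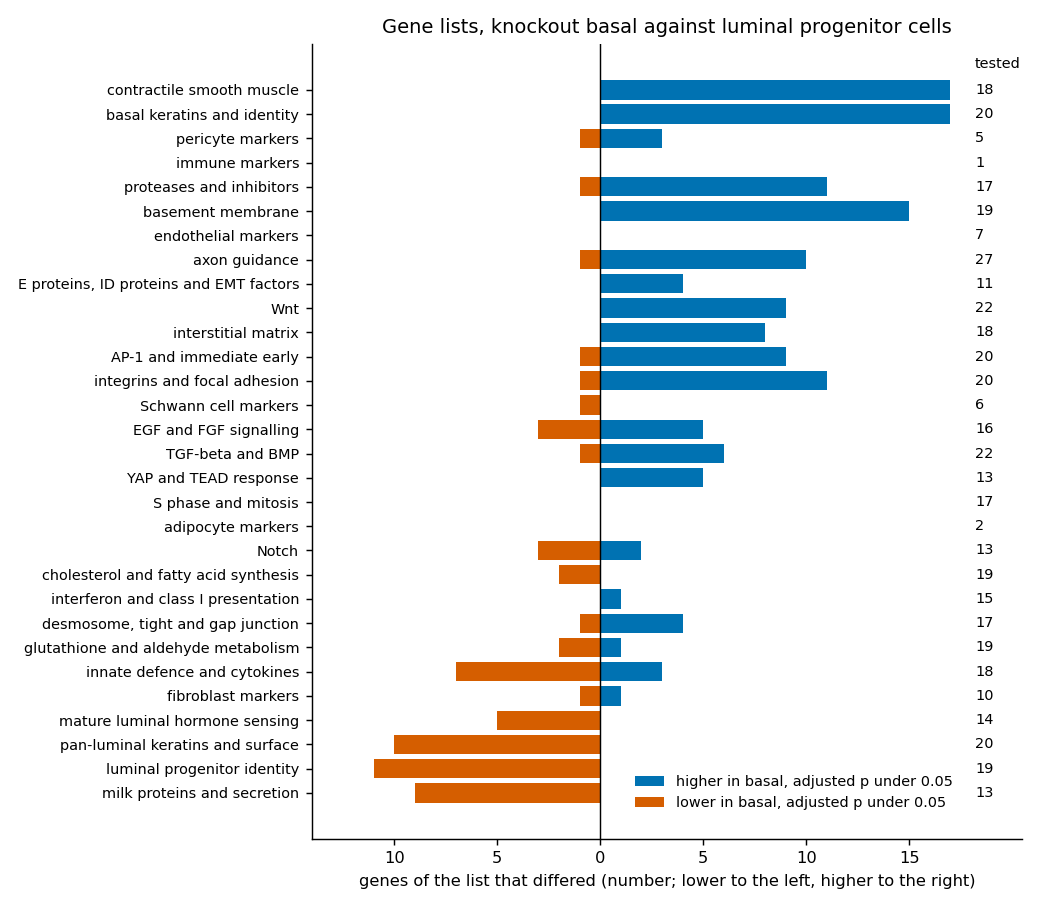
Number of genes in each of 30 gene lists that were higher (right, blue) or lower (left, orange) in knockout basal than in knockout LP cells at an adjusted p under 0.05, with the number tested at the right. Lists are ordered by their median log2 difference: contractile and basal lists at the top lie wholly to the right, and the 4 luminal lists at the bottom wholly to the left. The list of erythroid markers had no tested gene and is not drawn.

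Genes of several signalling pathways differed between the lineages. In the Wnt pathway 9 of 22 genes were higher in basal cells and none lower (median 1.65). Fzd7, a Wnt receptor, had 436, 413, 900.2 and 440.2 CPM against 21.8 to 42.8 (4.16 ± 0.36, adjusted p = 8.17e-06). Lgr5, the R-spondin receptor that marks stem cells in several epithelia, had 127 to 257 CPM against 1.42 to 4.43 (6.08 ± 0.45). Inhibitors were basal too: Dkk3 differed by 8.22 ± 0.81, and Wif1, which binds Wnt ligands, had 73.5, 52.6, 117 and 41.9 CPM in basal cells and no count in any LP library, at least 125-fold higher with 3 counts per library as the floor. Axin2, a target of the pathway, had 15.4 and 1.02 CPM and did not pass (adjusted p = 0.061). The ligands Wnt4, Wnt5a, Wnt5b and Wnt7b had higher means in LP cells and did not pass.

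The Notch ligands and receptors that passed lay on opposite sides. The ligands Dll1 (103, 59.9, 201 and 193 CPM in basal and 0.682 to 0.946 in LP cells; 7.41 ± 0.55, adjusted p = 2.22e-06) and Jag2 (5.82 ± 1.13) were higher in basal cells. Jag2 was low in KO basal replicate 3, at 6.11 CPM against 74.0 to 77.1 in the other 3. The receptors Notch1 (-2.35 ± 0.37, adjusted p = 0.00099) and Notch3 (-2.32 ± 0.44) and the target Hey1 (-4.46 ± 0.85) were lower in basal cells. Hey1 varied most among LP libraries, from 60.1 to 1011 CPM, without overlap with the 2.88 to 28.3 of basal cells. The other 8 of 13 genes tested did not pass, among them the target Hes1 (32.1 and 32.5 CPM). Within replicates 3 and 4, 1 gene of the list was higher and 0 were lower in basal cells.

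The EGF family was split by member. Nrg1, a ligand of ERBB3 and ERBB4, had 60.2, 52.8, 22.3 and 132 CPM in basal cells and 0.499 to 2.22 in LP cells (5.77 ± 0.71, adjusted p = 0.000142). Both receptors were higher in LP cells, Erbb3 at 118 to 165 CPM against 12.2 to 43.8 (-2.53 ± 0.40) and Erbb4 at 19.8 to 74.7 against 0.246 to 1.76 (-5.45 ± 0.77). The ligand Areg was lower in basal cells (-2.17 ± 0.58), and the FGF ligands Fgf1 and Fgf2 were higher (2.54 ± 0.60 and 2.56 ± 0.77). In all 5 of 16 genes of the list were higher and 3 lower, and the 5 fell to 2 without KO LP replicate 4 and to 3 without KO basal replicate 4, KO LP replicate 1 or KO LP replicate 2. Among TGF-beta and BMP genes 6 of 22 were higher and 1 lower. Tgfbr3, the co-receptor betaglycan, had 497 to 1066 CPM against 25.4 to 62.8 (4.08 ± 0.38), Bmp7 differed by 4.70 ± 0.76, and Inhbb, an activin subunit, by -3.17 ± 0.61. Of 13 YAP and TEAD genes 5 were higher, among them Tead1 (572, 649, 1397 and 634 CPM against 97.5 to 177; 2.64 ± 0.35) and the target Ctgf (5.17 ± 0.50), while Cyr61, another target, had means of 205 and 411 CPM and did not pass (adjusted p = 0.113). Axon guidance genes, used by many epithelia for positioning, were higher for 10 of 27 and lower for 1 (median 2.20), with 17 higher by DESeq2 or voom and 4 within replicates 3 and 4. Slit2 had 98.1 to 150 CPM against 0 to 1.29 (7.73 ± 0.67), Sema5a 381 to 674 against 8.04 to 17.1 (5.46 ± 0.36), and Ntn1 was the 1 that was lower (-1.97 ± 0.57).

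On the luminal side, 11 of 19 LP identity genes tested were lower in basal cells and none higher, with a median of -3.09. Kit, the receptor used as an LP surface marker, had 10.1, 111, 10.1 and 12.3 CPM in basal cells and 322, 238, 577 and 357 in LP cells (-3.37 ± 0.74, adjusted p = 0.0089). Aldh1a3, an enzyme of retinoic acid synthesis, had 1.74, 4.11, 5.75 and 5.67 CPM against 61.0, 37.4, 160 and 110 (-4.43 ± 0.59, adjusted p = 0.000252). Cd14, a co-receptor for bacterial lipopolysaccharide, had 0 to 13.7 against 90.4 to 224 CPM (-4.35 ± 0.76). Basal replicate 2 was the highest of its group for Kit, Elf5 and Cd14 but not for Aldh1a3, and without it 12 genes of the list passed. The count fell to 6 with no expression filter and to 5 within replicates 1 and 2 or within replicates 3 and 4. Sox10, also expressed in LP cells, had means of 31.6 and 66.4 CPM and did not pass (adjusted p = 0.229), nor did Stat5a, the transducer of prolactin signals, whose mean was higher in basal cells (140 against 78.5 CPM, adjusted p = 0.162).

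Milk genes were lower in basal cells for 9 of 13 tested, with none higher and a median of -3.53. Csn3, kappa casein, had the highest level per kilobase of any gene called at least 4-fold higher in LP cells, at 7295 CPM per kb, against 431 in basal cells. It stood at 7980, 7211, 4814 and 9740 CPM in LP cells and at 192, 1005, 165 and 394 in basal cells (-4.08 ± 0.55, adjusted p = 0.000284). Btn1a1, a protein of the milk fat globule, had 1720 to 4123 CPM against 30.9 to 194 (-4.66 ± 0.60). The other caseins varied too much between replicates to pass: Csn2 had 768, 6137, 893 and 2251 CPM in LP cells and 4.59, 1114, 1.44 and 34.3 in basal cells (-3.12 ± 1.91, adjusted p = 0.407). In both populations replicate 2, which came from 1 pool, was the highest for Csn2 and for Csn1s1. Without KO basal replicate 2, 12 milk genes passed. Spp1, the secreted phosphoprotein osteopontin, differed by -6.23 ± 0.99 (adjusted p = 0.000962), and by a fit with the replicates as a block its adjusted p was 0.060.

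Pan-luminal genes were lower in basal cells for 10 of 20, with none higher and a median of -2.77. The luminal keratins Krt8 (79.5, 180, 89.5 and 135 CPM against 741, 738, 1304 and 1121; -3.01 ± 0.34, adjusted p = 6.9e-05), Krt18 (-3.10 ± 0.53) and Krt19 (-3.13 ± 0.54) differed by nearly the same amount. Epcam, an adhesion molecule of luminal cells, remained at 169 to 272 CPM in basal cells against 584 to 851 (-1.88 ± 0.26, adjusted p = 0.000349). The tight junction gene Ocln differed most (-4.66 ± 0.79). Gata3, a luminal transcription factor, had nearly equal means (70.2 CPM in basal and 58.3 in LP cells, adjusted p = 0.772). With the replicates as a block, 18 of the 20 passed, all lower in basal cells, and 15 passed without KO basal replicate 2. Innate defence genes were lower in basal cells for 7 of 18, including Lcn2 and Ltf, antibacterial proteins that bind iron or its carriers (-1.31 ± 0.28 and -3.38 ± 0.80). The chemokines Cxcl14 (118 to 521 against 0 to 1.84 CPM; 8.61 ± 0.74) and Cxcl12 (5.95 ± 0.66) were, with Csf1, the 3 members higher in basal cells.

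Hormone-sensing genes, which mark the mature luminal population that was sorted separately, were lower in knockout basal than LP cells for 5 of 14, with none higher and a median of -1.98. Esr1, the oestrogen receptor, had 4.11, 5.87, 3.59 and 18.5 CPM in basal cells and 53.8, 59.0, 51.8 and 37.5 in LP cells (-2.65 ± 0.59, adjusted p = 0.0094). Foxa1, its pioneer factor, had 3.32, 1.76, 2.52 and 4.44 CPM against 14.7, 56.4, 16.3 and 29.8 (-3.27 ± 0.69), and Prlr, the prolactin receptor, 120 to 332 against 677 to 1177 (-1.97 ± 0.35). Pgr, the progesterone receptor, did not pass (32.2 and 67.7 CPM, adjusted p = 0.279). The summed level of the whole list ran from 1398 to 2895 CPM in knockout LP, 458.2 to 852.6 in knockout basal, 663.5 to 1252 in WT LP and 438.9 to 858.7 in WT basal libraries, and the part of mature luminal cells in the result was not tested. In wild type 1 gene of the list was higher and 1 lower in basal cells (median -0.23). The count of 5 fell to 3 without KO basal replicate 1 or 4 or KO LP replicate 1 or 2 and to 0 within replicates 3 and 4, and was 10 with all 12 knockout libraries.

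Genes of the ID4 pathway itself were tested where their counts allowed, and Id4 was too low in this contrast. Of 11 E protein, ID protein and epithelial-mesenchymal transition genes, 4 were higher in knockout basal cells and none lower: Snai2, Tcf4, Id3 and Zeb2. Tcf4, which encodes the E protein E2-2, had 184, 239, 262 and 183 CPM against 38.8, 33.8, 40.7 and 62.2 (2.31 ± 0.30, adjusted p = 0.00022). Id3, a relative of Id4 with the same mode of action, had 103, 53.6, 96.0 and 110 CPM against 15.1, 5.32, 4.02 and 8.02 (3.48 ± 0.50, adjusted p = 0.000443). Zeb2, a repressor of epithelial genes, rested more on KO basal replicate 3, which had 249 CPM against 19.8 to 46.6 in the other 3 (3.23 ± 0.75, adjusted p = 0.0127). Without that library its adjusted p was 0.0402 (edgeR). The E proteins Tcf3 (17.8 CPM in basal and 10.6 in LP cells) and Tcf12 did not pass, nor did Id1 and Id2. In wild type 3 genes of the list were higher, with a median of -0.18 against 2.08 in the knockout, and no gene of the list passed the test of the difference between genotypes. The smallest unadjusted p there was that of Id2, whose difference was 1.24 in the knockout and -0.48 in wild type (edgeR quasi-likelihood test, unadjusted p = 0.00939, adjusted p near 1).

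Early response genes, which rise within minutes of a stimulus and also during tissue digestion, were higher in basal cells for 9 of 20 and lower for 1. Egr2, whose CArG boxes are shown above, had 550, 634, 831 and 626 CPM against 40.6, 33.6, 40.7 and 25.6 (4.23 ± 0.29, adjusted p = 1.53e-06). Fos and Egr1 differed less (1.25 ± 0.27 and 1.61 ± 0.32), Jun and Fosb had similar means (503 and 541 CPM, and 2734 and 2857), and Klf6 was lower in basal cells (-1.71 ± 0.27). Of 17 junction genes, the desmosome genes Pkp1 and Dsp, the p53 target Perp and the gap junction gene Gja1 (4.47 ± 0.33) were higher in basal cells and Pvrl4, a nectin, was lower. The lower members numbered 5 with the replicate block, by voom or with all 12 knockout libraries, and 4 without KO basal replicate 2 or 3. Scd1, a fatty acid desaturase, and its regulator Srebf1 were the 2 of 19 lipid synthesis genes that passed, both lower in basal cells (-2.95 ± 0.46 and -1.29 ± 0.31). Of 19 glutathione and aldehyde genes, Gsta4 was higher, and Mgst1 and Aldh1a3 lower. Of 15 interferon and antigen presentation genes, Irf1 was higher. The lipid synthesis, glutathione and interferon lists had 10.5%, 15.8% and 6.67% of their tested genes called. These shares lie near the 10.8% of all genes tested. None of 17 genes of S phase and mitosis passed. Mki67, a marker of cycling cells, ranged from 81.6 to 313 CPM in basal and from 4.97 to 261 in LP cells (edgeR adjusted p = 0.540), and with the replicates as a block it was higher in basal cells (adjusted p = 0.0383).

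Beyond the lists, genes absent from one population were ranked by their level in the other. The 4 with the highest basal level and no count in LP cells were Slc14a1, a urea transporter, Wif1, Tmem200a and Eya1, a developmental co-activator, at least 134-, 125-, 87.6- and 71.7-fold higher. With all 16 libraries on 1 scaling, Slc14a1 had 52.0 to 99.8 CPM in KO basal but 0 to 9.52 in WT basal libraries. It was not tested in the wild-type contrast, and its difference between genotypes did not pass (edgeR adjusted p near 1). Wif1, Tmem200a and Eya1 had WT basal means of 75.3, 61.1 and 29.4 CPM. Genes with no count in basal cells were at lower levels: Ccdc149, Cyp2f2, Sh2d4a and Igfals had mean LP levels of at least 9.14 CPM, at least 12.7- to 15.3-fold above the floor. In all 17 tested genes had no count in LP libraries and 13 none in basal libraries. Such genes entered the test only through the population where they were present. Among genes that passed without overlap, with at least 20 CPM in the higher population and some count in the other, the 8 largest differences toward basal cells included Irx4 and Fmod, with ratios of 1390 and 812 (95% counting intervals 249.0 to 54950 and 277.6 to 3942), and Sdk2, an adhesion molecule (9.23 ± 0.74). The 8 toward LP cells under the same limits ran from Spp1 (-6.23) to the transcription factor Foxi1 (-5.40 ± 0.94), with Folr1, a folate receptor (-6.03 ± 0.96), and Aqp5, a water channel (-5.48 ± 0.84), between them. Genes at least 4-fold different with the highest level per kilobase were Acta2, Tpm2, Ifitm3, Tpm1 and Sparc in basal cells (2572, 1057, 903, 840 and 760 CPM per kb). In LP cells they were Csn3, Trf, Plet1, Spp1 and Fcgbp (7295, 3942, 3742, 1202 and 1068 CPM per kb). Trf, transferrin, had 4458 to 7740 CPM in LP and 134 to 460 in basal cells. Plet1, a surface protein of progenitors in several epithelia, varied 1396 to 7975 CPM between LP libraries and 60.2 to 332 between basal ones.

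The same contrast in wild type shares no library with that in the knockout and called 1501 of 11851 genes (12.7%), 1040 higher in basal cells (8.78%) and 461 lower (3.89%). Of 11027 genes tested in both genotypes, 621 were called higher in basal cells in both, which is 81.9% of the 758 knockout calls and 64.7% of the 960 wild-type calls. Fewer luminal calls were shared: 198 genes, 47.1% of 420 knockout and 44.5% of 445 wild-type calls. Signs were nearly always equal. Of the wild-type calls, 951 of 960 and 435 of 445 had the same sign in the knockout, and no gene was called in both with opposite signs. The wild-type calls higher in basal cells had a median difference of 2.76 in wild type and 2.50 in the knockout, and those lower -2.05 and -1.89. Knockout calls lower in basal cells had a median of -3.004 in the knockout and -1.72 in wild type, but the latter moved with WT basal replicate 2. This library held 6266 CPM of summed LP identity genes and 25584 of milk genes, against 979.8 to 1332 and 461.2 to 1274 in the other WT basal libraries. Without it 2443 wild-type genes passed, 313 luminal calls were shared (74.2% of 422 knockout and 33.9% of 923 wild-type calls), and the median in wild type was -2.13.

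**Figure D3:**
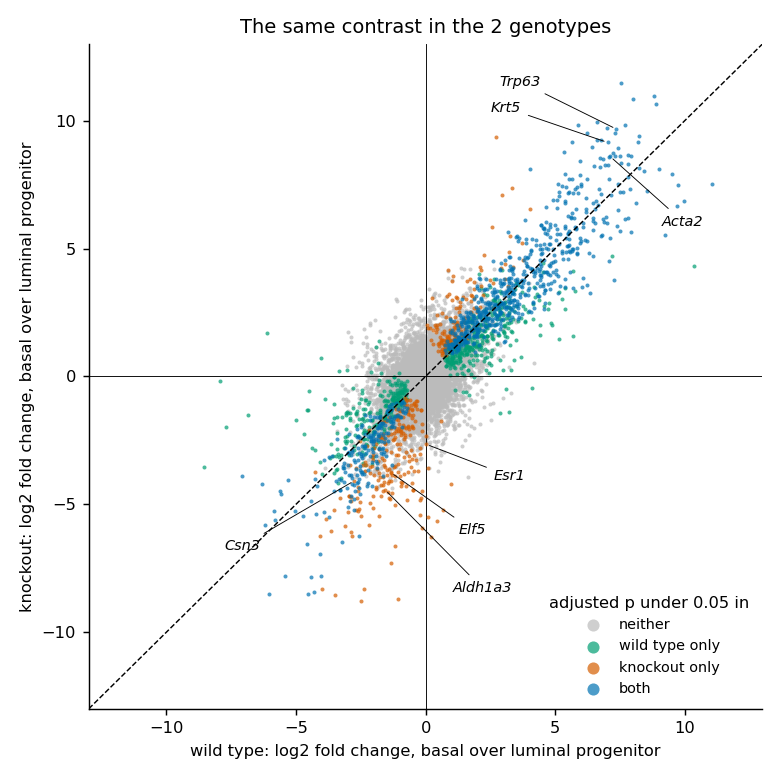
Log2 fold change of basal over LP cells in wild type (x axis) and in the knockout (y axis) for the 11027 genes tested in both, coloured by the genotype in which the adjusted p was under 0.05, with the line of equal change dashed. Basal genes such as Acta2, Krt5 and Trp63 lie in the upper right in both, and among luminal genes many of the knockout calls (Elf5, Aldh1a3, Esr1) lie below the dashed line. Choosing luminal genes by their knockout call favours this side of the line.

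Whether a lineage difference itself changed with Id4 was tested in 1 fit of the 16 libraries. None of 13328 genes passed (0%; edgeR quasi-likelihood test, 593 at an unadjusted p under 0.05), limma's voom gave 0, and DESeq2 gave 6: Cidea, Tec, Pitpnm3, Gm9930, Gm14133 and Gm17638. By DESeq2 the differences of Cidea and Gm14133 were -21.1 and 21.9 log2 units, sizes that counts at this depth cannot measure. Those of the others were -6.17 to -5.27. The edgeR test was not precise. For the 1405 genes called in wild type and tested in both, the 95% interval of the difference reached a median of 1.55 log2 units to each side of its value, lay within 2 log2 units of 0 for 626 (44.6%) and within 1 unit for 103 (7.33%). Marker intervals show the same. Acta2 had a difference of 1.48 between the genotypes' fold changes (95% interval 0.29 to 2.66), Krt14 one of 0.07 (-1.97 to 2.11), and Elf5 one of -2.41 (-6.43 to 1.61), which became 0.78 without WT basal replicate 2, where Elf5 stood at 302 CPM against 2.41 to 13.2 in the other WT basal libraries.

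None of the genes with the smallest unadjusted p in that test passed (edgeR adjusted p near 1 for each). They were picked as the 6 smallest p in each direction, so their directions and intervals that leave out 0 follow from the choice. Of 13328 genes, 593 had an unadjusted p under 0.05 (edgeR quasi-likelihood test), where chance alone gives about 1 in 20. Krt5 had 463 to 833 CPM in WT basal and 680 to 1146 in KO basal cells, and 1.21 to 8.52 in WT LP and 0.717 to 2.21 in KO LP cells, which gave a difference of 2.12 (95% interval 0.97 to 3.27). The others picked in this direction were Myh11 (1.51), Actg2 (3.34), Hmcn1, a basement membrane-associated giant protein (2.48), Cacna2d1, a calcium channel subunit (3.52), and Apoe (1.31). For Actg2 the LP libraries held 3 counts in the knockout, so that this value turns on a handful of reads. On the luminal side Aldh1a3 had 4.59 to 19.4 CPM in WT basal and 1.74 to 5.49 in KO basal cells, and 22.8 to 57.5 in WT LP and 37.6 to 162 in KO LP cells (-2.88, -4.42 to -1.34). Tec, a tyrosine kinase, had 2.84, 2.04, 24.9 and 1.80 CPM in WT basal cells and 0.316, 0, 0 and 0 in KO basal cells, with means of 20.3 and 19.8 in LP cells. Vipr1 and Pitpnm3 were high in WT basal replicate 2 (63.6 and 73.8 CPM), and their differences of -4.60 and -5.17 became -2.69 and -3.27 without it. Slain1 and Prr18 completed the group; Prr18 had no count in KO basal cells and a mean of 3.35 CPM in KO LP cells. Of the knockout calls, 9 had the opposite sign in wild type without passing there, Esr1 among them (0.02).

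**Figure D4:**
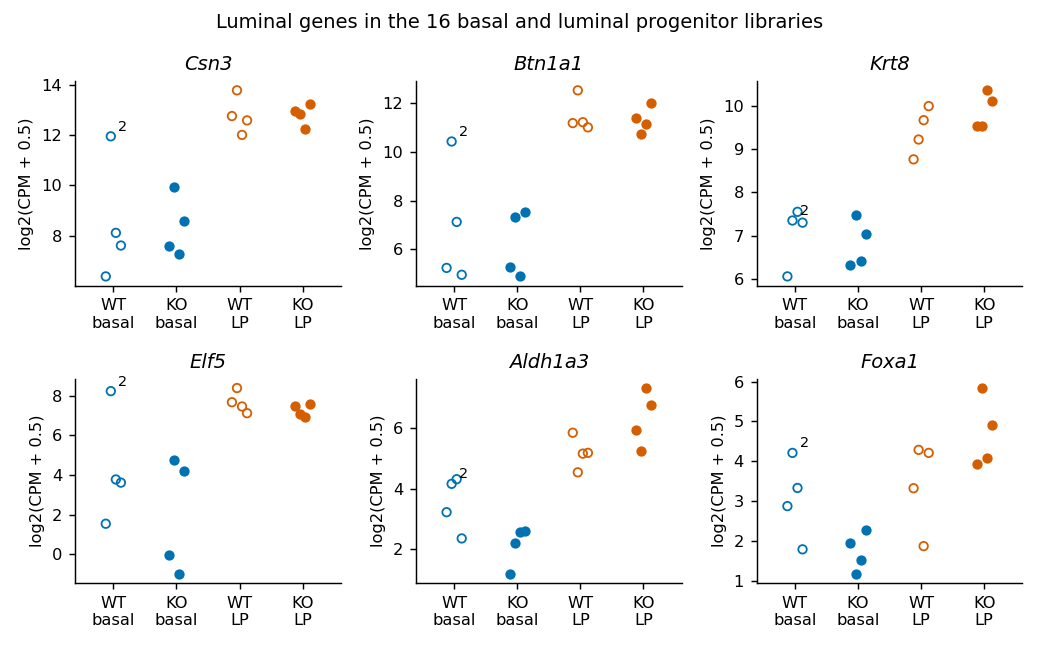
Levels of 6 luminal genes in the 16 WT (open) and KO (filled) basal (blue) and LP (orange) libraries, on the log2(CPM + 0.5) scale, with a point for each library and WT basal replicate 2 marked by its number. For Csn3, Btn1a1 and Elf5 this library lies near the LP libraries and far above the other WT basal libraries, while for Krt8 and Aldh1a3 it lies among them.

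Markers of cells outside the gates were present at varied levels. The 12 endothelial markers summed to 69.4 to 277.5 CPM in KO basal and 6.22 to 48.5 in KO LP libraries. Of the 7 tested none passed (median 2.51; Cdh5 had 148 CPM in KO basal replicate 3 and 1.48 to 14.9 in the others). Pericyte markers summed to 143.0 to 230.5 and 78.9 to 125.2 CPM. Of 5 tested, Cspg4, Mcam and Pdgfrb were higher in basal cells and Notch3 lower, and Rgs5, a defining pericyte gene, had 21.8 and 14.1 CPM and did not pass. Fibroblast markers summed to 151.8 to 289.6 and 177.0 to 694.5 CPM, and the highest sum was that of KO LP replicate 1. This library also held 1192 CPM of summed interstitial matrix genes, against 343.8 to 672.6 in the other KO LP libraries. Of 10 fibroblast markers tested, Fbln1 was higher and Pi16 lower in basal cells. The median was -1.34, and 2 of the 10 had a difference above 0. Of 11 immune markers 4 had no count in any of the 8 libraries and 1, Lyz2, could be tested (13.9 and 0.720 CPM, adjusted p = 0.071). Neither of 2 adipocyte markers passed, although with the replicates as a block Lpl was lower in basal cells (edgeR adjusted p = 0.0343). Of the others, 1 of 6 Schwann cell markers did (Erbb3, lower), and erythroid markers summed to at most 3.29 CPM. The part of these cells in the matrix and pericyte-like differences was not tested.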

How the data were processed

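The deposited table holds expected counts per gene that the authors made from their reads. Per the submitters' processing notes, the tools were cutadapt, STAR and RSEM with genome mm10 (versions not stated there). The table lists 24007 genes, 25 of them without a symbol, and 23758 identifiers were found in the annotation. Expected counts were rounded to whole numbers. Genes kept by edgeR's filterByExpr were tested with edgeR's quasi-likelihood test (edgeR 4.0.16, limma 3.58.1 and DESeq2 1.42.0 in R 4.3.3) with TMM scaling on the 8 knockout libraries, and p-values were adjusted by Benjamini-Hochberg over all genes tested. The wild-type contrast was fitted the same way, and the difference between genotypes in 1 fit of 16 libraries, whose CPM values use another scaling. The scripts were tested on simulated data. The 31 gene lists hold 541 symbols, of which 536 matched the table, 3 through a synonym. The members and lists were chosen with earlier results of these data known. The rule for named genes took the markers, Id4 and the sort genes. It added the 8 largest differences each way among genes that passed without overlap, had at least 20 CPM in the higher group and some count in the lower, and the 5 most abundant per kilobase in each population at least 4-fold higher there. It also took, per list, the 2 genes lowest in p, the 6 smallest p for the difference between genotypes each way, and the 4 most abundant genes at 0 in one population. Predicted genes were passed over. Other list members were named after their values were seen. Replicate numbers pair the populations because each pool was sorted into both, and the main fits left this pairing out. Residuals of same-numbered libraries correlated at 0.101, 0.192, 0.122 and 0.0342, and those of libraries with different numbers at -0.168 to 0.150. Promoters came from RefSeq, GRCm38.p6. Alternatives were other scaling, filters and tools, the replicate block, all 12 knockout libraries, pairs of replicates, and leaving out each library.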

Additional observations from a re-analysis of the deposited data

Results flagged for a closer look

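For 15 values 1 library was set apart from the other 3 of its group by Dixon's test of the gap against the group's range. Of 196 groups listed, those with the same value in every library could not be flagged. Chance alone flags about 1 in 20 groups, but this rate does not hold where the other 3 libraries had no count. There a single read is flagged whatever its size, which was so for Pappa, Snai2, Irx4, Fmod, Cldn2, Tec and Id4. In KO basal replicate 3, Fzd7 stood at 900.2 CPM (412.7 to 440.2 in the others) and Tead1 at 1397 (572.2 to 648.7). In KO basal replicate 1, Cldn2 stood at 0.949 CPM and Tec at 0.316, with none in the others. Among KO LP libraries, replicate 1 was high for Bgn (13.8 CPM), Vipr1 (48.5), Snai2 (0.184) and Irx4 (0.184). Replicate 2 was high for Pappa (0.499) and Fmod (0.499). Replicate 3 was low for Ifitm3 (22.5), Actg2 (0) and Cdh5 (0) and high for Sh2d4a (17.7). Replicate 4 held the only Id4 counts of the group (0.682). Several of these values rest on 3 counts or fewer.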

How the results depend on the processing

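The count of 1227 genes was 1866 by DESeq2, 2025 by limma's voom, 1883 with all 12 knockout libraries, 766 within replicates 1 and 2 and 323 within replicates 3 and 4. Leaving out each library gave 925 to 1631. Genes higher in basal cells numbered 233 within replicates 3 and 4, and 637 to 1005 leaving out each library. Genes lower numbered 743 by DESeq2, 850 by voom, 851 with 12 libraries, 220 within replicates 1 and 2 and 90 within 3 and 4, and 288 to 626 leaving out each library. The cause was not tested, beyond fewer samples in the pairs. With 12 libraries 54.8% of calls were higher in basal cells, against 65.1%. With the replicate block, which pairs the populations by pool, 1325 genes passed in the knockout, 1574 in wild type and 0 for the difference between genotypes. Of the 1325, 1116 were among the 1227, and 806 were higher and 519 lower in basal cells. The block also ended the call of Spp1 and made calls of Cd24a and Lpl. The wild-type count of 1501 ran from 1119 to 2443 leaving out each library. The difference between genotypes gave 0 genes, and 6 by DESeq2. The Id4 difference of -3.06 was -3.56 to -2.55 leaving out each library, with an exact permutation p of 0.0286 to 0.0857 that stayed under 0.05 in 2 of 8. No named gene reversed, but 28 lost their call within replicates 3 and 4 and 8 within replicates 1 and 2. List counts also moved within these pairs. Within replicates 3 and 4, higher members numbered 3 for integrins, 2 for interstitial matrix, 5 for Wnt, 2 for TGF-beta, 0 for EGF and FGF, 4 for proteases and 2 for early response genes. Lower members there numbered 0 for innate defence and 0 for Notch genes. Within replicates 1 and 2, higher members numbered 2 for YAP, 2 for EGF and FGF, 7 for proteases and 4 for early response genes, and lower members 5 for pan-luminal, 5 for milk and 4 for innate defence genes. Pan-luminal genes numbered 18 by voom, and lower glutathione genes 5 by DESeq2. Genes near 3 counts per library are limited by depth.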
